A study of Medicago truncatula with 6 samples.

Results

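High-affinity nitrogen uptake genes of Medicago truncatula root hairs are described here through 5 genes out of the 50897 genes listed in the count files. They were chosen by identifier. MtNRT2.1 (Medtr4g057890) and MtNRT2.2 (Medtr4g057865) encode NRT2 nitrate transporters, MtNAR2.1 (Medtr4g104730) and MtNAR2.2 (Medtr4g104700) encode NAR2 proteins, also called NRT3, and MtAMT1;1 (Medtr1g045550) encodes an ammonium transporter. All 5 were counted in every library and passed the filter on low counts.

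Root hairs enlarge the surface over which a root absorbs nitrate and ammonium, and in legumes they are also the cells that first perceive Nod factors (NF), the lipochitooligosaccharide signals of rhizobia. When nitrate is scarce, plant roots take it up through NRT2 proteins of the plasma membrane. In Arabidopsis most NRT2 transporters need a small partner protein of the NAR2 type to reach the membrane and to transport nitrate, so carrier and partner work as a complex. Ammonium enters through a separate family, the AMT transporters, of which the AMT1 branch has high affinity. In Arabidopsis, transcripts of the NRT2.1 carrier are induced by nitrate and repressed when the plant is well supplied with nitrogen.

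The seedlings were wild type A17, 5 days old and grown in vitro on Fahraeus medium, and each library came from the root hairs of about 100 plants pooled. They had been given a synthetic NF for 4 h (NF 4 h, replicates 1 and 2) or for 20 h (NF 20 h, replicates 1 and 2), or sterile water (control, replicate 2); control replicate 1 was not analysed here. The label of the control library carries 4 h, so the NF 20 h libraries were set against a control that may differ from them in time as well as in NF. The hairs were shaken off frozen root segments that lacked the tip, so the material can hold other root cells, and in such bulk samples a change in the share of a cell type cannot be told apart from a change of RNA per cell.

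The 5 libraries held 39199411 to 47302574 counted read pairs, at which 3 pairs correspond to 0.0634 to 0.0765 CPM, counted pairs scaled to a common library total (counts per 1000000), far below every value of these 5 genes. The NF response was seen in the libraries labelled NF, through MtENOD11, a known early NF marker, and MtLYK10, a LysM receptor kinase gene. Together they had 26.0 and 12.4 FPKM at NF 4 h, 84.6 and 79.2 FPKM at NF 20 h and 0.208 FPKM in the control. By edgeR's quasi-likelihood test MtLYK10 was called against the control at both times. MtENOD11 was called at NF 20 h but not at NF 4 h (log2 fold change 6.88, SE 1.11, adjusted p = 0.0858). FPKM here are counted pairs per kilobase of transcript and per 1000000 counted pairs. All 5 root hair markers were counted in every library. Their summed level was 455 and 581 FPKM at NF 4 h, 417 and 728 FPKM at NF 20 h and 425 FPKM in the control. None of them was called in any comparison, but few genes were. Against the control, 0.684% of all genes tested were called at NF 4 h and 1.47% at NF 20 h, and 0.0498% between the times. The markers' log2 fold changes against the control ran from -0.04 to 1.01 at NF 4 h and from 0.11 to 1.19 at NF 20 h. The 3 markers of other root cells were also counted in every library, with a summed level of 32.9 and 31.2 FPKM at NF 4 h, 17.8 and 23.0 FPKM at NF 20 h and 11.5 FPKM in the control. Of these 3, SCR, listed here as an endodermis gene, was called at both times against the control (log2 fold change 2.36, SE 0.24, adjusted p = 0.0324 at NF 4 h and 1.73, SE 0.23, adjusted p = 0.0394 at NF 20 h by edgeR's quasi-likelihood test). SHR (listed for the stele) and SMB (root cap) were not. Which cells of M. truncatula roots express these 3 genes was not tested here. SHR had 1.4 and 0.753 FPKM at NF 4 h, 0.654 and 0.646 FPKM at NF 20 h and 0.216 FPKM in the control. SMB had 4.43 and 5.92 FPKM at NF 4 h, 2.67 and 3.41 FPKM at NF 20 h and 6.23 FPKM in the control. Thus SCR, which made up most of the sum in the NF libraries, and SHR were ordered over the groups like the nitrate genes below, whereas SMB was highest in the control. The part of these cells in the values below was not tested.

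The nitrate genes had their highest levels at NF 4 h, intermediate levels at NF 20 h and their lowest level in the control. MtNRT2.1 had 71.8 and 59.7 FPKM at NF 4 h, 38.3 and 39.1 FPKM at NF 20 h and 17.5 FPKM in the control (95% exact Poisson interval 16.7 to 18.4, counting error only). No 2 of the groups overlapped for this carrier. Both NF 4 h libraries lay above the control in 29.9% of the genes tested, and both NF 20 h libraries in 33.6%. Both NF 20 h libraries lay below both NF 4 h libraries in 16.7%. The share of genes with all 3 groups in this order was not computed. MtNRT2.2 had 65.4 and 48.1 FPKM at NF 4 h, 36.5 and 27.3 FPKM at NF 20 h and 16.7 FPKM in the control (95% interval 15.8 to 17.5). Its groups did not overlap either, but its 2 NF 20 h libraries differed by 1.34-fold, against 1.02-fold for MtNRT2.1.

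Among the partner genes, MtNAR2.1 had 409 and 330 FPKM at NF 4 h, 241 and 231 FPKM at NF 20 h and 130 FPKM in the control (95% interval 127 to 133). It was thus the most abundant nitrate gene in all 5 libraries, and it stood at rank 182 and 236 of the 50897 genes at NF 4 h, rank 328 and 380 at NF 20 h and rank 681 in the control. MtNAR2.2 had 28.1 and 29.4 FPKM at NF 4 h, 15.8 and 19.9 FPKM at NF 20 h and 6.25 FPKM in the control (95% interval 5.59 to 6.96). It was the least abundant of the 5 genes in every library.

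The ammonium transporter gene behaved otherwise. MtAMT1;1 had 103 and 112 FPKM at NF 4 h, 64.6 and 66.6 FPKM at NF 20 h and 134 FPKM in the control (95% interval 131 to 136). The control library was above all NF libraries, and the NF 20 h libraries were below both NF 4 h libraries. Lying on 1 side of a single control library is common, since both libraries of a group were above it in 29.9% of the genes tested at NF 4 h and 33.6% at NF 20 h, and below it in 41.1% and 34.5%.

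**Figure D1:**
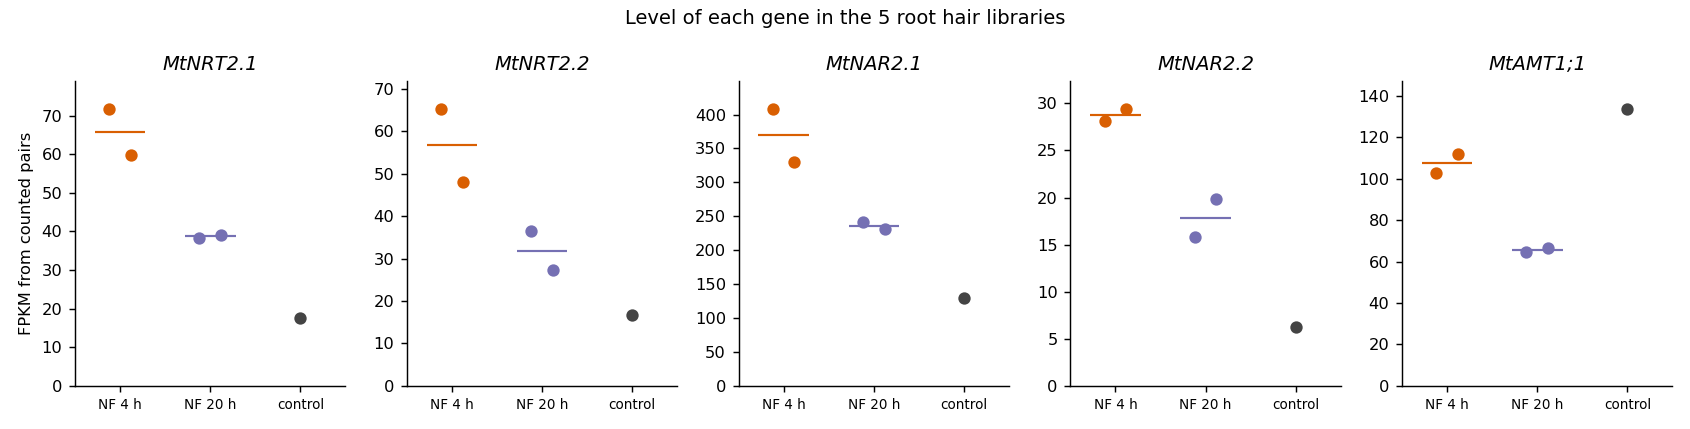
Level of each of the 5 genes in FPKM from counted pairs (vertical axes start at 0 and differ between panels), with 1 point per library and a line at the mean of the 2 libraries of each NF group. The 4 nitrate genes are highest at NF 4 h and lowest in the control, while MtAMT1;1 is highest in the control (134 FPKM) and lowest at NF 20 h (64.6 and 66.6 FPKM).

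The order of the 5 levels was the same in both NF groups and was not fully resolved in the control. At NF 4 h it ran from MtNAR2.1 (369 ± 55.4 FPKM, SD, n = 2) over MtAMT1;1 (107 ± 6.26), MtNRT2.1 (65.8 ± 8.54) and MtNRT2.2 (56.7 ± 12.2) to MtNAR2.2 (28.8 ± 0.909). At NF 20 h the order was the same, with MtNAR2.1 at 236 ± 7.33 FPKM, MtAMT1;1 at 65.6 ± 1.41, MtNRT2.1 at 38.7 ± 0.622, MtNRT2.2 at 31.9 ± 6.48 and MtNAR2.2 at 17.8 ± 2.86 (SD, n = 2). In the control MtAMT1;1 and MtNAR2.1 headed the list with counting intervals that overlapped, and the intervals of MtNRT2.1 and MtNRT2.2 overlapped too. Within each of the 5 libraries MtNRT2.1 was above MtNRT2.2 by pair counts, at 1.1 and 1.24 times its level at NF 4 h, 1.05 and 1.43 times at NF 20 h and 1.05 times in the control. By single reads, described next, this ratio was 0.974 and 1.03 at NF 4 h, 0.967 and 1.13 at NF 20 h and 0.957 in the control, so the order of the carriers was not the same in all libraries.

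The position of the NRT2 carriers in this order depended on how reads were counted. The files give for each gene the pairs in which both mates were placed on its transcript and, separately, a count of reads placed on it. Reads with equally good hits on several transcripts had been discarded. The read count appears to include the mates of pairs, but not fully for every gene. For MtNPF4.13 in the control, the mates of counted pairs came to 102% of the reads. The shares below are therefore ratios of the 2 counts and only approximate true shares. For MtNRT2.1 the counted pairs accounted for 28.6% and 33.2% of the reads at NF 4 h, 27.1% and 39.9% at NF 20 h and 27.4% in the control. For MtNRT2.2 they accounted for 25.4% and 27.5% at NF 4 h, 25% and 31.3% at NF 20 h and 24.9% in the control. The share was 82.7% to 84.4% for MtNAR2.2, 97.9% to 98.7% for MtNAR2.1 and 99.7% to 99.8% for MtAMT1;1.

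Across the 9257 genes with at least 1000 reads in every library the median share was 91.7% to 92.2%. Between 0.497% and 0.843% of them had a lower share than MtNRT2.1 or MtNRT2.2 in a given library. NF 20 h replicate 2 stood out for both carriers, while the median over the 110 other genes with a mean share under 50% was 30.3% in that library, against 29.1% to 31.2% in the others. Pair counts therefore cover a minority of the reads placed on the carriers, in a proportion that was not the same in all libraries. How many reads of MtNRT2.1 and MtNRT2.2 were discarded as ambiguous is not recorded per gene, so both ways of counting give uncertain levels for this pair of paralogs.

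**Figure D2:**
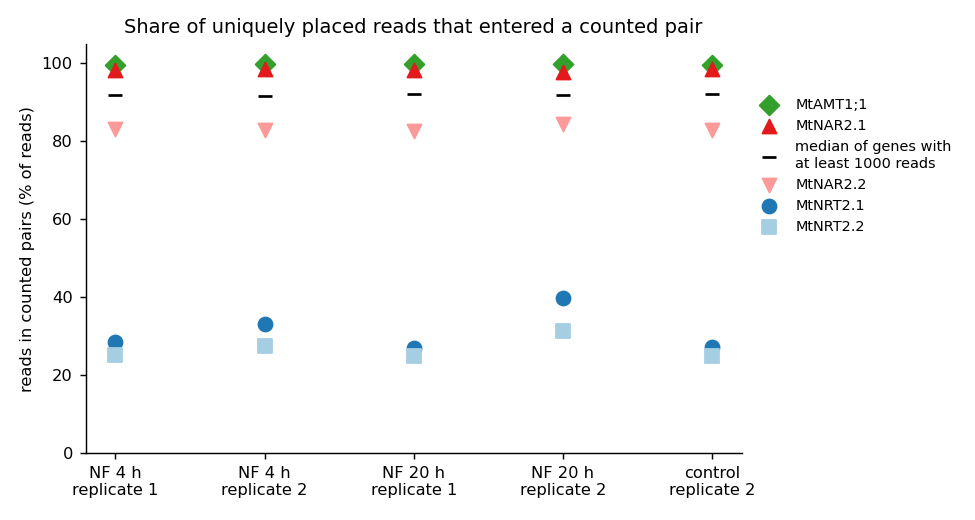
Mates of counted pairs as a percentage of the read count of each gene, in each of the 5 libraries, with the median of 9257 genes as a black bar. MtAMT1;1 and MtNAR2.1 lie above the median, MtNAR2.2 below it, and the NRT2 carriers lie between 24.9% and 39.9%, highest in NF 20 h replicate 2.

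Counted by single reads (reads per kilobase and per 1000000 placed reads, RPKM), MtNRT2.1 had 231 and 166 RPKM at NF 4 h, 130 and 90.3 RPKM at NF 20 h and 59.0 RPKM in the control. MtNRT2.2 had 237 and 160 RPKM at NF 4 h, 135 and 80.3 RPKM at NF 20 h and 61.7 RPKM in the control. The groups still did not overlap, and the share of all genes of which this holds was not computed for single reads. The replicates were further apart: the NF 20 h libraries differed by 1.44-fold for MtNRT2.1 and by 1.68-fold for MtNRT2.2. On this scale both carriers stood above MtAMT1;1 in all 4 NF libraries (94.9 and 103 RPKM at NF 4 h, 59.7 and 61.5 RPKM at NF 20 h), whereas in the control MtAMT1;1 was higher, with 124 RPKM.

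The first comparison asked which of these genes differed after 4 h of NF. In the fit over all genes, 2 of the 5 were called, both higher than the control (called means an adjusted p under 0.05 by edgeR's quasi-likelihood test, with Benjamini-Hochberg adjustment over the 22091 genes tested), where 0.684% of all genes tested were called and 0.525% were called higher. MtNRT2.1 rose 3.76-fold (log2 fold change 1.91, SE 0.19, adjusted p = 0.0297 by the same test). MtNAR2.2 rose 4.6-fold (2.2, SE 0.22, adjusted p = 0.0300). The call on MtNRT2.1 was lost when single reads were used in place of pairs (1.75, adjusted p = 0.130), while that on MtNAR2.2 was kept (2.2, adjusted p = 0.0289).

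The other NRT2 and NAR2 genes did not pass the threshold at this time. MtNRT2.2 had a log2 fold change of 1.77 (SE 0.29, adjusted p = 0.0874) and MtNAR2.1 one of 1.5 (SE 0.21, adjusted p = 0.0576) at NF 4 h against the control. Both passed without NF 4 h replicate 2, NF 20 h replicate 1 or NF 20 h replicate 2, with an adjusted p of 0.0140 to 0.0296 for MtNRT2.2 and 0.0300 to 0.0407 for MtNAR2.1. DESeq2's Wald test and edgeR's exact test called all 4 nitrate genes, where they called 2.58% and 3.91% of all genes tested. For MtAMT1;1 the log2 fold change was -0.32 (SE 0.15, adjusted p = 0.668), and no test run called it at this time.

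After 20 h of NF, again 2 of the 5 genes were called against the control, 1 in each direction, where 1.47% of all genes tested were called, 1.1% higher and 0.371% lower. MtNAR2.2 rose 2.85-fold (log2 fold change 1.51, SE 0.21, adjusted p = 0.0421 by edgeR's quasi-likelihood test). MtAMT1;1 fell to 0.491 of the control level (-1.03, SE 0.15, adjusted p = 0.0481). This last call lay at the threshold: without any 1 of the 4 NF libraries its adjusted p was 0.0582 to 0.0755, and with only the NF 20 h and control libraries in the fit it was 0.0674, although the log2 fold change stayed between -1.05 and -0.99 under every alternative.

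The other nitrate genes had positive values that did not pass. MtNRT2.1 had a log2 fold change of 1.14 (SE 0.18, adjusted p = 0.0540) at NF 20 h against the control. It passed without NF 4 h replicate 1 or 2, but not without NF 20 h replicate 1 or 2. Each of these fits called a larger share of all genes than the main fit. The log2 fold change of MtNRT2.1 stayed between 1.13 and 1.16 in them. MtNRT2.2 had 0.94 (SE 0.27, adjusted p = 0.241) and MtNAR2.1 had 0.86 (SE 0.20, adjusted p = 0.146). With single reads the value of MtNRT2.1 was 0.90 (adjusted p = 0.355). DESeq2's Wald test and edgeR's exact test called all 5 genes at this time, where they called 4.1% and 5.98% of all genes tested.

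**Figure D3:**
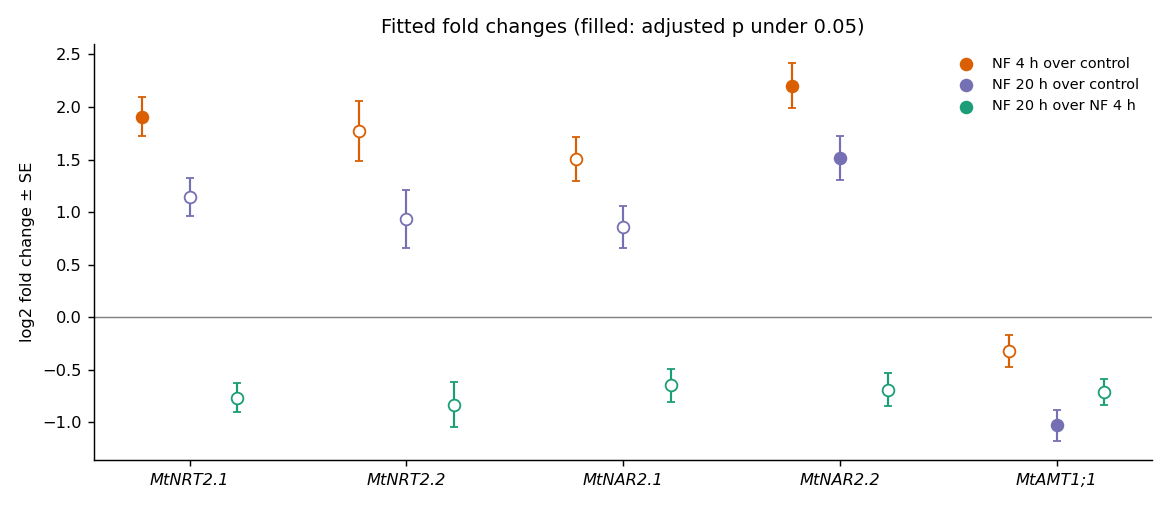
Fitted log2 fold change with its standard error for each gene in the 3 comparisons, from counted pairs; filled points have an adjusted p under 0.05. The nitrate genes lie above 0 against the control at both times, MtAMT1;1 lies below 0, and all 5 lie between -0.83 and -0.65 for NF 20 h over NF 4 h, with no filled point.

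Whether the later time differed from the earlier one was tested directly. None of the 5 genes was called, where 0.0498% of all genes tested were called. All 5 had a negative log2 fold change and an unadjusted p under 0.05 in edgeR's quasi-likelihood test. Of the genes tested, 10.7% had an unadjusted p under 0.05 in either direction, and the share with a negative value as well was not computed. The values were -0.77 (SE 0.14, adjusted p = 0.131) for MtNRT2.1, -0.83 (SE 0.22, adjusted p = 0.232) for MtNRT2.2, -0.65 (SE 0.16, adjusted p = 0.203) for MtNAR2.1, -0.69 (SE 0.16, adjusted p = 0.179) for MtNAR2.2 and -0.71 (SE 0.13, adjusted p = 0.127) for MtAMT1;1. In all 5 genes both NF 20 h libraries lay below both NF 4 h libraries, as in 16.7% of the genes tested. DESeq2's Wald test and edgeR's exact test called all 5, where they called 3.25% and 4.16% of all genes tested.

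The summed carrier and partner pools were then compared, as a description with no test. The NRT2 pool (MtNRT2.1 plus MtNRT2.2) had 137 and 108 FPKM at NF 4 h, 74.7 and 66.4 FPKM at NF 20 h and 34.2 FPKM in the control. Its mean was thus 3.59 times the control at NF 4 h and 2.07 times at NF 20 h. The NAR2 pool (MtNAR2.1 plus MtNAR2.2) had 437 and 360 FPKM at NF 4 h, 257 and 251 FPKM at NF 20 h and 136 FPKM in the control, which put its mean at 2.92 and 1.86 times the control at NF 4 h and NF 20 h.

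By pair counts, partner transcripts outnumbered carrier transcripts in every library. The NAR2 pool was 3.18 and 3.34 times the NRT2 pool at NF 4 h, 3.44 and 3.77 times at NF 20 h and 3.99 times in the control. All 4 NF libraries lay below the control, by less in NF 20 h replicate 2 than in the others. From single reads the same ratio was 0.882 and 1.04 at NF 4 h, 0.921 and 1.4 at NF 20 h and 1.07 in the control, so that the pools were of like size and the NF libraries lay on both sides of the control.

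Within the pools, MtNRT2.1 and MtNRT2.2 were close to equal and MtNAR2.1 predominated. MtNRT2.1 made up 52.4% and 55.4% of the NRT2 pool at NF 4 h, 51.2% and 58.9% at NF 20 h and 51.3% in the control. MtNAR2.1 made up 93.6% and 91.8% of the NAR2 pool at NF 4 h, 93.8% and 92.1% at NF 20 h and 95.4% in the control. The minor partner therefore took a larger share in each NF library than in the control: MtNAR2.2 over MtNAR2.1 was 0.0689 and 0.0891 at NF 4 h, 0.0656 and 0.0860 at NF 20 h and 0.0480 in the control. Single reads gave the same order of groups for this ratio, with 0.0816 and 0.106 at NF 4 h, 0.0781 and 0.0998 at NF 20 h and 0.0570 in the control.

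**Figure D4:**
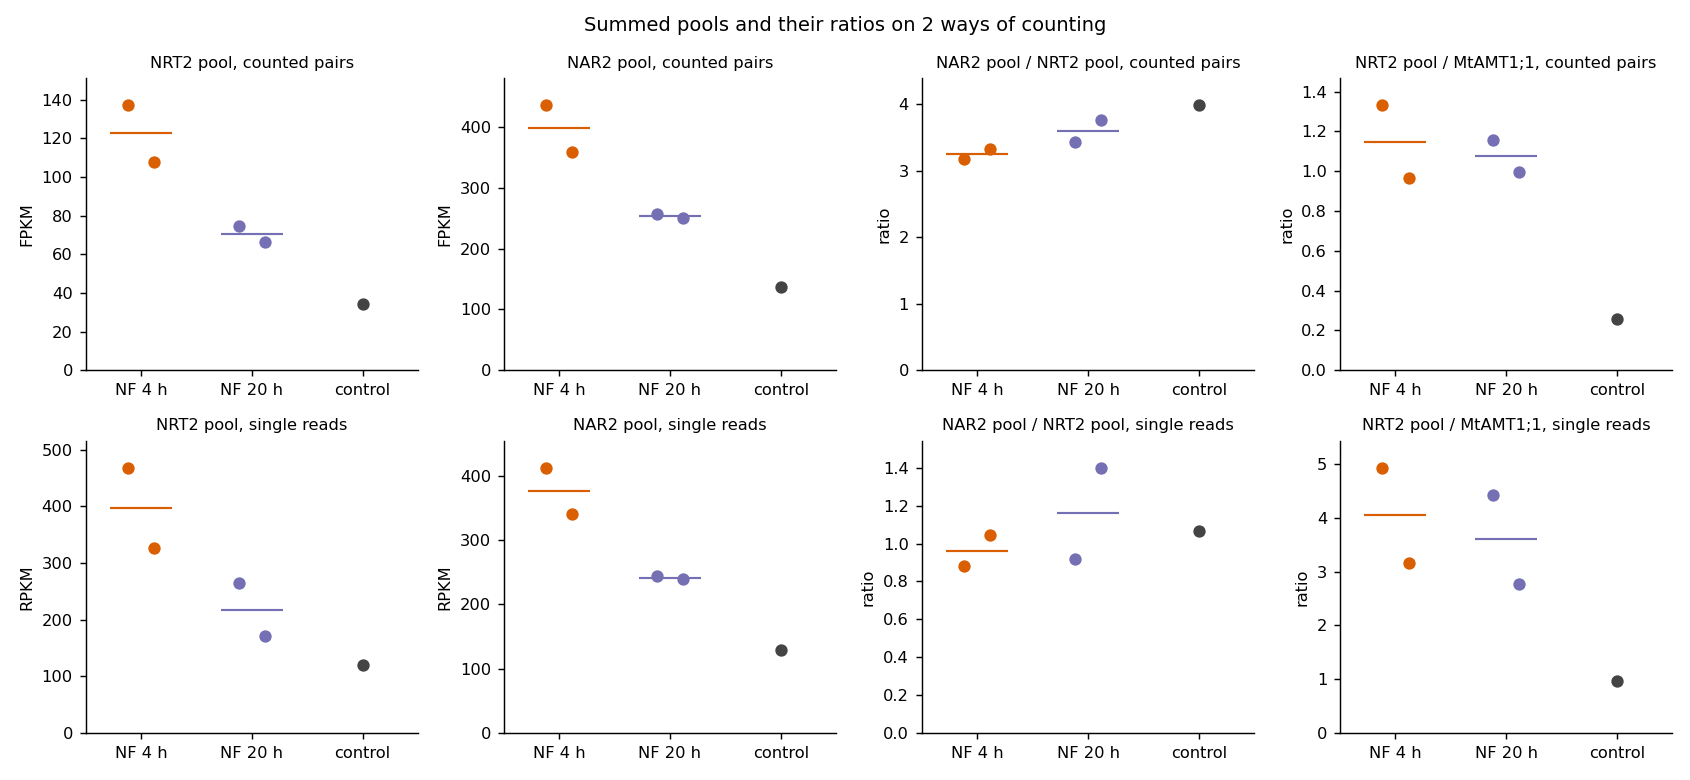
Summed levels of the NRT2 and NAR2 genes and 2 ratios in each library, from counted pairs (top row) and from single reads (bottom row); points are libraries, lines are means of the 2 libraries of an NF group, and axes start at 0. The NAR2 to NRT2 ratio is 3.18 to 3.99 from pairs but 0.882 to 1.4 from single reads, while the NRT2 to MtAMT1;1 ratio is higher in every NF library than in the control on both scales.

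Relative to MtAMT1;1, the NRT2 pool was higher in every NF library than in the control on both scales. The NRT2 pool was 1.33 and 0.965 times MtAMT1;1 at NF 4 h, 1.16 and 0.997 times at NF 20 h and 0.255 times in the control. The means were 4.5 and 4.22 times the control value at NF 4 h and NF 20 h. From single reads the ratio was 4.93 and 3.17 at NF 4 h, 4.43 and 2.77 at NF 20 h and 0.974 in the control, with means 4.16 and 3.70 times the control value. The NF groups overlapped in this ratio on either scale. At NF 4 h the log2 fold changes against the control were 1.91 and 1.77 for the carriers and -0.32 for MtAMT1;1, and at NF 20 h they were 1.14 and 0.94 for the carriers and -1.03 for MtAMT1;1.

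Beyond these 5 genes, 108 other genes of the NRT2, NRT3, AMT and NPF families, of nitrogen assimilation and of nitrogen regulation were examined, of which 63 passed the filter on low counts. At NF 4 h 4 of the 63 were called higher and none lower, where 0.525% of all genes tested were called higher, with a median log2 fold change of 0.12, against -0.03 over all genes tested. At NF 20 h 3 were called higher and 1 lower, where 1.1% and 0.371% of all genes were, with a median of -0.01, against 0.00 over all genes. Between NF 20 h and NF 4 h none was called by edgeR's quasi-likelihood test, and the median was -0.08, against 0.04 over all genes. In this comparison 17 of the 63 had an unadjusted p under 0.05, as had 10.7% of all genes tested. DESeq2's Wald test and edgeR's exact test called 9 each, where they called 3.25% and 4.16% of all genes.

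The remaining NRT2 gene, MtNRT2.3, a homolog of the carriers, had 6.69 and 6.91 CPM at NF 4 h, 5.39 and 7.57 CPM at NF 20 h and 11.6 CPM in the control. The fit gave -0.76 on the log2 scale (SE 0.25, adjusted p = 0.410) at NF 4 h and -0.83 (SE 0.25, adjusted p = 0.258) at NF 20 h, negative where those of MtNRT2.1 and MtNRT2.2 were positive. In the NRT3 list Medtr3g076590, annotated as a diphosphatase, had values of -0.08 and 0.04 on the log2 scale at NF 4 h and NF 20 h (adjusted p = 0.979 and 0.971).

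Of the 11 AMT genes, 4 averaged 1 CPM or more and 2 had no counts in any library. Medtr1g079760, annotated as an ammonium transporter 1 protein, had 15.1 and 12 CPM at NF 4 h, 13.9 and 12.3 CPM at NF 20 h and 2.06 CPM in the control. It rose 6.57-fold at NF 4 h (log2 fold change 2.72, SE 0.26, adjusted p = 0.0295 by edgeR's quasi-likelihood test) and 6.36-fold at NF 20 h (2.67, SE 0.26, adjusted p = 0.0228). Its level stayed far below that of MtAMT1;1: per length it had 7.37 and 5.86 FPKM at NF 4 h, 6.79 and 6.02 FPKM at NF 20 h and 1.01 FPKM in the control. MtAMT2;1, of the AMT2 branch, had a log2 fold change of -0.14 (SE 0.17, adjusted p = 0.955) at NF 4 h and -0.68 (SE 0.17, adjusted p = 0.181) at NF 20 h. Medtr4g017820, also annotated as an ammonium transporter, had -0.91 (SE 0.29, adjusted p = 0.385) and -0.84 (SE 0.29, adjusted p = 0.333).

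In the NPF family, which holds nitrate and peptide transporters, 39 of 79 genes passed the filter. Only 1 was called, at NF 20 h, where 1.47% of all genes tested were called. MtNPF6.4 had 0.507 and 0.434 CPM at NF 4 h, 0.262 and 0.550 CPM at NF 20 h and 4.01 CPM in the control, and it fell at NF 20 h (log2 fold change -3.29, SE 0.48, adjusted p = 0.0485 by edgeR's quasi-likelihood test). This call was lost without NF 20 h replicate 1 (adjusted p = 0.0564). The value at NF 4 h was -3.08 (SE 0.48, adjusted p = 0.0774). It passed without NF 20 h replicate 1 or 2, in fits that called a larger share of all genes than the main fit. MtNPF6.7, the NPF gene with the highest mean level, had 59.0 and 59.2 FPKM at NF 4 h, 79.6 and 59.1 FPKM at NF 20 h and 55.7 FPKM in the control, with log2 fold changes of 0.08 and 0.31 (adjusted p = 0.982 and 0.717).

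Among the 10 genes of nitrogen assimilation, Medtr4g086020 and MtGS2a were called, both higher. Of all genes tested, 0.525% were called higher at NF 4 h and 1.1% at NF 20 h. Medtr4g086020, annotated as a ferredoxin-nitrite reductase, the enzyme that reduces nitrite to ammonium in plastids, had 10.1 and 6.3 CPM at NF 4 h, 3.72 and 2.41 CPM at NF 20 h and 0.197 CPM in the control. It rose at NF 4 h (log2 fold change 5.36, SE 0.60, adjusted p = 0.0373 by edgeR's quasi-likelihood test). Its value at NF 20 h was 3.93 (SE 0.59, adjusted p = 0.0504 by the same test). That value passed without any 1 of the 4 NF libraries, in fits that called a larger share of all genes than the main fit. Its control value rested on 9 pairs. MtGS2a, a glutamine synthetase gene, had 45.2 and 41.4 CPM at NF 4 h, 32.2 and 23.0 CPM at NF 20 h and 3.49 CPM in the control, and it rose 12.4-fold at NF 4 h (adjusted p = 0.0233) and 7.91-fold at NF 20 h (adjusted p = 0.0226). The other 8 genes of the list were not called at either time.

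Of the 6 regulators, 1 was called at both times, where 0.684% of all genes tested were called at NF 4 h and 1.47% at NF 20 h. This was MtNIN, a transcription factor gene required for nodulation and related to the NLP factors of nitrate signalling. It had 27.9 and 24.8 CPM at NF 4 h, 46.3 and 40.8 CPM at NF 20 h and 4.34 CPM in the control, and it rose at NF 4 h (log2 fold change 2.6, SE 0.20, adjusted p = 0.0233 by edgeR's quasi-likelihood test) and at NF 20 h (3.33, SE 0.21, adjusted p = 0.0159). Unlike the nitrate transporter genes it was higher at NF 20 h than at NF 4 h in all libraries, though the difference between the times was not called (log2 fold change 0.72, SE 0.14, adjusted p = 0.141), whereas DESeq2's Wald test and edgeR's exact test called it (adjusted p = 0.0236 and 0.00594). The remaining 5, LBD38 and the genes of the CIPK23 kinase and its CBL partners included, were not called.

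**Figure D5:**
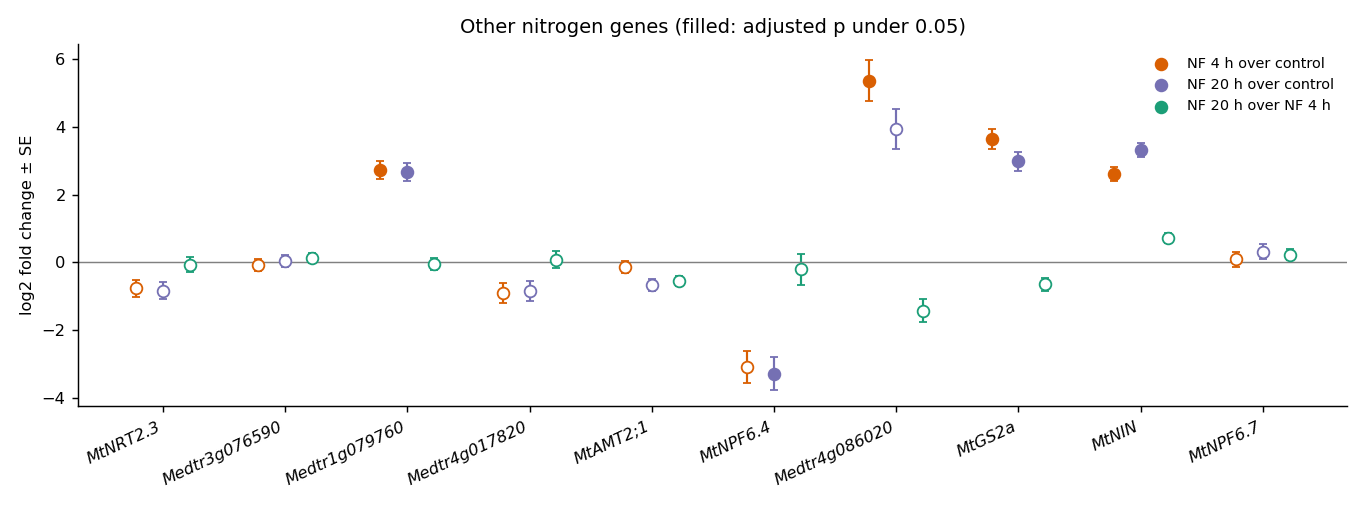
Fitted log2 fold change with its standard error for 10 other nitrogen genes in the 3 comparisons, from counted pairs; filled points have an adjusted p under 0.05. Medtr1g079760, Medtr4g086020, MtGS2a and MtNIN lie above 0 against the control and MtNPF6.4 lies below 0, near -3 at both times.

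Genes with profiles most like those of 3 of the transporters were sought over the 5 libraries, among the 10230 genes that averaged 10 CPM or more, by the Euclidean distance between log2(CPM + 1) values centred on each gene's mean. These distances rest on 5 libraries that share 1 control and are a description only. Nearest to MtNRT2.1 were Medtr1g016620, annotated as a protein phosphatase 2C-like protein (distance 0.193), Medtr1g115900, a cationic peroxidase (0.248), and Medtr1g070135, a dioxygenase-like protein (0.265). MtNAR2.1, MtNAR2.2 and MtNRT2.2 followed at rank 7, 10 and 11, whereas MtAMT1;1 stood at rank 9578.

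Nearest to MtNAR2.2 was Medtr1g069725, the gene SCR listed above for the endodermis, with 40.4 and 36.7 CPM at NF 4 h, 21.6 and 28.3 CPM at NF 20 h and 7.52 CPM in the control (distance 0.225). Medtr5g010830, annotated as a MATE efflux protein (0.247), and Medtr5g035430, a protein with a DUF4228 domain (0.371), came next, and MtNRT2.1 stood at rank 5. Nearest to MtAMT1;1 were Medtr2g082090, a GRAS transcription factor (0.0671), Medtr7g092700, a PRA1 family protein (0.0785), and Medtr4g046147, a hypothetical protein (0.0919). These 3 genes had 18.3 to 46.8 CPM at NF 4 h, 11.3 to 27.0 CPM at NF 20 h and 24.0 to 54.3 CPM in the control.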

How the data were processed

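Each deposited file lists 50897 Mt4.0v1 transcripts with 2 counts, made by the authors from paired-end reads (Bowtie2 2.0 per the labels' processing notes) and not normalized. Per the file headers, reads with equally good hits on several transcripts were removed (7.42% to 8.44% of mapped reads), the pair count holds properly paired mates on 1 transcript, and the read count equals, in sum, mapped reads less those removed. The labels name an unstranded kit and the study's methods a stranded one, and no strand setting was used here. Pair counts of 5 libraries in 3 groups were fitted together with edgeR 4.0.16 (R 4.3.3): library-size scaling as in the study, filterByExpr, quasi-likelihood test, Benjamini-Hochberg adjustment, 2 residual degrees of freedom before moderation. The spread comes from the NF libraries only, since the control has 1 library. SE was taken as the fold change over the root of F. The script was tested on simulated counts.

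The labels number the replicates and the methods call them independent biological repeats. The 5 genes and all lists were chosen with earlier results of these data known. Gene names and annotations came from the study's tables. Named besides the 5 were other NRT2, NRT3 and AMT genes averaging 1 CPM or more, NPF, assimilation and regulator genes called in a comparison, the most abundant NPF gene, the 3 nearest profiles of MtNRT2.1, MtNAR2.2 and MtAMT1;1, and markers. The 14 alternative fits covered scaling, test (DESeq2 1.42.0, edgeR's exact test), filter, counting, samples, replicate block and each NF library left out. Using single reads in place of pairs was chosen after seeing the data.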

Additional observations from a re-analysis of the deposited data

How the results depend on the processing

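The sign of all 15 member log2 fold changes held in all 14 alternative fits, and 158 of the 210 member values so obtained kept their side of the threshold, 44 passed it newly and 8 lost it. The 2 genes called at NF 4 h against the control became 4 with DESeq2's Wald test, edgeR's exact test, no filter, or only the groups compared. These fits called 2.58%, 3.91%, 1.46% and 1.68% of all genes tested, in that order. The number was 1 with single reads or with pairs plus singles (which appears to count mates again), where 0.609% and 0.593% were called. Against the control, each fit with 1 NF library left out also called a larger share of all genes than the main fit. Leaving out 1 NF library gave 2 to 4. At NF 20 h against the control the 2 became 5 with DESeq2 or the exact test and 1 with at least 10 counts in every library, and 1 to 2 with 1 library left out. Between NF 20 h and NF 4 h, 0 became 5 with DESeq2 or the exact test, and stayed 0 with any library left out. The other nitrogen genes called were 4, 4 and 0 in these comparisons. They were 7, 7 and 9 with DESeq2, 8, 7 and 9 with the exact test, and 3 between the NF times with no filter, where 1.02% of all genes were called. With at least 10 counts in every library, 1.16% of all genes tested were called at NF 20 h against the control. Leaving out 1 library gave 4 to 6, 4 to 6 and 0.

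With the replicate number as a block, the members called were 4 at NF 4 h, 5 at NF 20 h and 5 between the times, and the other nitrogen genes called were 11, 16 and 20, when 1650, 2706 and 1952 of the 22091 genes tested were called, against 151, 325 and 11 without it. The block leaves 1 residual degree of freedom. Deviations of same-numbered libraries correlated at 0.505 over 22091 genes, but only 2 pairs exist and no label ties a number to a shared day, so the numbers are not taken as pairs.

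Not dividing by length, the NAR2 pool was 1.96, 2.17 and 2.41 times the NRT2 pool at NF 4 h, at NF 20 h and in the control, against 3.26, 3.61 and 3.99 with it, and the NRT2 pool was 0.239 times MtAMT1;1 in the control. With pairs plus singles the first ratio was 1.25, 1.49 and 1.41 and the second 3.08, 2.76 and 0.735. With single reads they were 0.963, 1.16 and 1.07, and 4.05, 3.60 and 0.974. MtNRT2.1 over MtNRT2.2, 1.17 at NF 4 h and 1.05 in the control from pairs, was 1.02 and 0.967 with pairs plus singles and 1.003 and 0.957 with single reads. MtNAR2.2 over MtNAR2.1 was 0.0938 at NF 4 h and 0.0570 in the control with single reads, and 0.0541 in the control with pairs plus singles. Leaving out either NF library gave 3.18 to 3.34 and 3.44 to 3.77 for the first ratio, 0.965 to 1.33 and 0.997 to 1.16 for the second, 1.1 to 1.24 and 1.05 to 1.43 for MtNRT2.1 over MtNRT2.2, and 0.0689 to 0.0891 and 0.0656 to 0.0860 for MtNAR2.2 over MtNAR2.1.

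For other genes, log2 values near 0 changed sign without a call. Between NF 20 h and NF 4 h, leaving out either NF 20 h library gave 0.15 and -0.34 for MtNRT2.3, 0.22 and -0.84 for MtNPF6.4, and -0.00027 and 0.43 for MtNPF6.7. Leaving out either NF 4 h library gave 0.13 and -0.20 for Medtr1g079760 and -0.13 and 0.32 for Medtr4g017820. These 2 genes had 0.04 without NF 20 h replicate 2 and -0.08 without NF 20 h replicate 1. At NF 20 h against the control, leaving out either NF 20 h library gave -0.045 and 0.12 for Medtr3g076590. With the block MtNPF6.7 was -0.018 at NF 4 h.

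With 1 control library, the spread between controls was not measured. Where a fit leaves 1 library in an NF group, it is assumed to vary like the rest. Depth does not limit the 5 genes, whose lowest pair count was 330. How many ambiguous reads were discarded for the NRT2 carriers is not recorded, so their levels stay uncertain.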
